A study of Homo sapiens with 78 samples.

Results

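The 36 Jurkat wells of the study, out of 78 wells in all, were compared between 2 library preparation kits at the level of single transcripts. All wells labelled Jurkat were taken, 18 prepared with kit #634444 and 18 with kit #634413. Each transcript of the Kallisto index was tested on its estimated counts, the reads that Kallisto assigns to it by weighing all the transcripts a read could come from. A transcript entered the test if 25% of the 36 wells or more held 5 counts of it, which left 15847 of 200207 targets. The spike sequences were left out. Targets are named by gene and Ensembl identifier, or by the GENCODE transcript name (RPL19-204).

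The study made total RNA libraries of single cells sorted by FACS. Jurkat is a human T cell leukemia line, and its cells were sorted into lysis solution. A375, a human melanoma line sorted into PBS, gave the other 42 wells. Kit #634413 is the Pico Input Mammalian member of the SMARTer Stranded Total RNA-Seq series, and kit #634444 the SMART-Seq Stranded Kit, and the labels name no treatment or altered gene for either. Each Jurkat group is single cells of 1 line, so the p-values measure the spread between sorted cells and their libraries. Kits, and index numbers within them, were not crossed: wells of #634413 carried index numbers in the blocks 49 to 56, 57 to 64 and 65 to 72, and wells of #634444 in the blocks 73 to 80, 81 to 88 and 89 to 96, with 6 wells in each block. Per the study's methods, cells were pooled in eights during library preparation with the kits. The labels do not name the pools, so a block of 8 index numbers was used in their place, and the kit cannot be told apart from a pool effect other than by comparing 3 blocks with 3, where an exact permutation test cannot go below p = 0.1.

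Total RNA protocols prime cDNA synthesis at random sites, so they record RNAs with and without a poly(A) tail. Among those without a tail are structured RNAs made by RNA polymerase III, such as 7SK, which keeps the elongation factor P-TEFb inactive, 7SL, the RNA of the signal recognition particle, and the RNA of RNase P, which trims transfer RNA precursors. A gene's mRNA isoforms share most of their sequence, so a read often fits several of them, and its assignment rests on the few reads that cover a start, an end or a junction that differs. Ribosomal protein mRNAs add the further difficulty that the genome holds many processed pseudogenes, reverse-transcribed copies of the mRNA.

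The label Jurkat held in the data. All 14 T cell marker genes, CD3E, LCK and TRAC among them, had counts in both kits, with summed counts of 806 to 3508 per well for #634413 and 735 to 5174 for #634444, and they exceeded the summed A375 markers in 36 of 36 wells. The 4 monocyte markers summed to at most 2 counts with #634413 and 6 with #634444, with LYZ and CD14 at 0 in both kits. Of B cell markers, MS4A1 was at 0 in both kits, 2 others had counts with #634413 and 1 with #634444, and they summed to at most 34 and 54 counts per well. Totals ranged from 413959 to 1443975 estimated counts, so that 3 counts in the smallest well are 0.000725% of it, a figure that covers counting error only. Mean totals were lower with #634444, 799566 ± 269256 against 1005477 ± 264114 (SD, n = 18 each; two-sided permutation test, adjusted p = 0.0415; exact p over blocks 0.3). None of the 630 pairs of Jurkat wells had identical values.

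The sequences below carry the main findings. They are the end of the 7SK transcript that rose, the part of ENST00000554988 where RPPH1 begins, the place where the transcripts of RPL19 part, and the A runs inside ENST00000445332 and MAFF-208. All come from GENCODE v44 (hg38) and are written 5′ to 3′. Bases 32 to 331 of 7SK (ENST00000365328) are shown (chr6:52995651-52995950, plus strand), with capitals for the 2 bases that follow the shorter target RN7SK (ENST00000636484), which it contains.
7SK: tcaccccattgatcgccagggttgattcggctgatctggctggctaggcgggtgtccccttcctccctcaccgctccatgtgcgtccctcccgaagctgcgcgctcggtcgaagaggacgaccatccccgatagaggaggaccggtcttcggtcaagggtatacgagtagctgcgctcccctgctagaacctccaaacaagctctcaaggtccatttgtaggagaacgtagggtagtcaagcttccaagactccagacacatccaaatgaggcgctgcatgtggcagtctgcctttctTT

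ENST00000554988, a target of 638 bases from the gene ENSG00000259001, contains all 333 bases of RPPH1 (ENST00000516869). Bases 259 to 558 of it are shown (chr14:20343128-20343427, minus strand), with those of RPPH1 in capitals.
ENST00000554988: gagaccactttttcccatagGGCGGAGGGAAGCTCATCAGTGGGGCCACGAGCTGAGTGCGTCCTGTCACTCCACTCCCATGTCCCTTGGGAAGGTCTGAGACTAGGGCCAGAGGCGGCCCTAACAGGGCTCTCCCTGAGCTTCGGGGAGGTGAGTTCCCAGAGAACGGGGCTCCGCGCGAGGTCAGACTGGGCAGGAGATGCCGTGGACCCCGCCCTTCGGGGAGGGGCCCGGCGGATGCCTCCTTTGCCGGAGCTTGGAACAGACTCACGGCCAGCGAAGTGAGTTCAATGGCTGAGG

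RPL19-204 lacks 9 bases at the start of the second exon of the RPL19 target ENST00000225430. Both stretches have the same outer ends (chr17:39200340-39201231, plus strand) and span an intron that ends 9 bases later in RPL19-204. The 9 bases are in capitals.
ENST00000225430: cagccatgagTATGCTCAGgcttcagaag
RPL19-204: cagccatgaggcttcagaag

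ENST00000445332 (chr2:117839249-117839319, plus strand) and MAFF-208 (chr22:38200774-38200844, plus strand) each hold an internal run of 31 A bases, in capitals.
ENST00000445332: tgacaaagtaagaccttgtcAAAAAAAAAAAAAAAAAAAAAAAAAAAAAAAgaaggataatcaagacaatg
MAFF-208: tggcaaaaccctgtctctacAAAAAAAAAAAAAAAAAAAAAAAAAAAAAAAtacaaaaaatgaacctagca

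Of the 15847 transcripts tested, 31 differed between the kits (0.196%; edgeR's quasi-likelihood test, adjusted p under 0.05). With #634444, 30 of them were higher (0.189%) and 1 was lower (0.00631%). Of the higher ones, 17 held under 5 counts in every #634413 well, and the lower one held under 5 in every #634444 well. These passed the filter only through the kit where they are high, so their number is no support for a difference. At an unadjusted p under 0.05, 619 transcripts (3.91%) passed, 457 higher (2.88%) and 162 lower (1.02%). The median log2 fold change over all transcripts tested was 0.09 with TMM scaling and -0.01 with library size alone, a shift of 0.10, and small differences are to be read against this shift. The calls fell into 2 kinds: 6 transcripts with a mean over 200 counts rose by between 0.63 and 1.28 on the log2 scale, while 24 called transcripts had a mean under 50 counts. In the second kind, zeros dominated: 18 of the 31 called transcripts had 0 counts in at least 16 of the 18 #634413 wells. The called transcripts were 23 coding mRNAs and 8 others, with a median length of 2333 bases against 2169 over all tested. With the counts summed over index blocks no transcript passed (edgeR; 651 had an unadjusted p under 0.05), and leaving out 1 block at a time gave between 8 and 127 calls: 78, 127 and 122 without a #634413 block (49 to 56, 57 to 64 and 65 to 72), and 8, 11 and 13 without a #634444 block (73 to 80, 81 to 88 and 89 to 96).

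**Figure D1:**
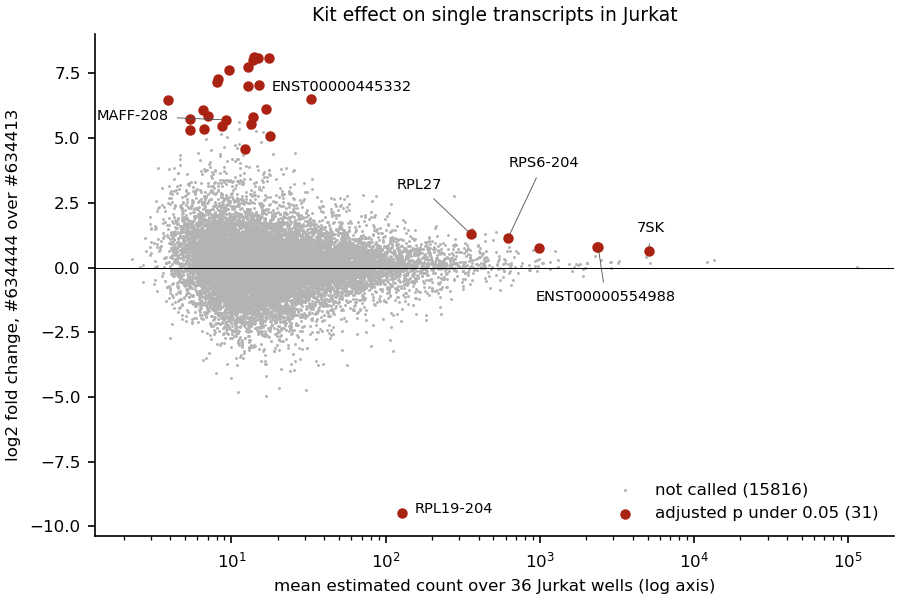
Log2 fold change between kits (vertical axis, #634444 over #634413) against the mean estimated count over 36 Jurkat wells (horizontal log axis), 1 point per tested transcript. The 31 called transcripts (red) form a row of abundant ones near 1 and a cloud of scarce ones above 4, with RPL19-204 alone at -9.48, where fitted values of transcripts at 0 in 1 kit have no fixed size.

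Among short structured RNAs, 7SK rose. Its target ENST00000365328 (331 bases, 1 exon) had between 3199 and 6214 normalized CPM (counts scaled to a common library total, with TMM correcting for composition) in the #634413 wells, with a median of 4396, and between 5576 and 10080 in the #634444 wells, with a median of 6565. The groups overlapped in part, 3 wells of #634413 lying at or above the lowest #634444 well and 7 of #634444 at or below the highest #634413 well. The log2 fold change was 0.63 (SE 0.09, adjusted p = 2.08e-05 in edgeR, n = 18 wells per kit), and the 3 #634444 blocks, with means of 7437, 6112 and 7809, were all above the 3 #634413 blocks at 4970, 4769 and 4053. The shorter target RN7SK, which lies inside it, was at 0 counts in all 36 wells, so the counts of this locus stood on a single target.

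ENST00000554988 overlaps RPPH1, the gene of the RNase P RNA, on the same strand. It ranged from 1427 to 3120 normalized CPM in #634413 wells (median 1956) and from 2381 to 4473 in #634444 wells (median 3562). Here 4 wells of each kit lay in the range of the other, and the log2 fold change was 0.78 (SE 0.11, adjusted p = 2.08e-05 in edgeR). RPPH1 itself ranged from 312 to 1722 and from 935 to 2117, with medians of 813 and 1296, and 14 #634444 wells lay within the range of #634413. Its log2 fold change of 0.70 ± 0.18 (SE) did not pass the test (adjusted p = 0.112). Since the longer target contains the shorter whole, reads of RPPH1 could be split between them in any proportion. Their sum, computed after these values were seen, was 2883 ± 510 with #634413 and 4875 ± 862 with #634444 (SD, n = 18), a ratio of 1.69.

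**Figure D2:**
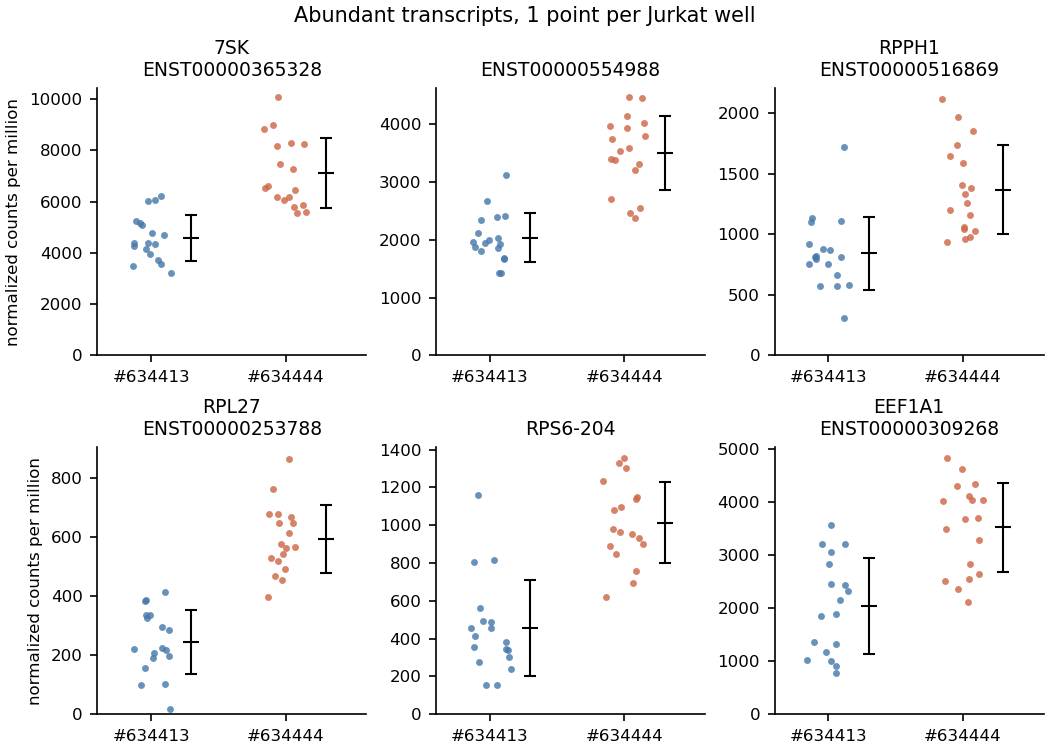
Normalized CPM (vertical axes, starting at 0) of 6 abundant transcripts in 18 Jurkat wells per kit, 1 point per well, with bars for the mean and SD. The mean of the #634444 wells is higher in every panel, and for RPL27 the kits share a range of no more than 1 well each.

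None of the other short RNAs passed the test. SNORD3A, the U3 small nucleolar RNA that takes part in ribosomal RNA processing, went from a median of 251 normalized CPM (118 to 456) to 498 (323 to 699), with a log2 fold change of 0.94 ± 0.27 (SE; adjusted p = 0.26). SNORA73B, another small nucleolar RNA, went from 279 to 414 in the median (log2 fold change 0.73 ± 0.27, adjusted p = 0.84). For both, the wells of the kits overlapped. RN7SL2, the most counted 7SL target, had medians of 13921 and 16753, with a log2 fold change of 0.29 ± 0.11 (adjusted p = 0.834).

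Spliceosomal RNAs, the catalytic core and recognition RNAs of splicing, had differences of either sign. The log2 fold changes were -0.13 ± 0.24 (SE) for RNU1-1, 0.34 ± 0.41 for RNU2-1, 0.27 ± 0.33 for RNU4-2, 0.49 ± 0.67 for RNU5B-1 and 0.18 ± 0.58 for RNU6-1. The RNAs of the minor spliceosome, RNU11 (-0.61 ± 1.23) and RNU12 (0.28 ± 0.77), and the Y RNAs RNY1 (-0.09 ± 0.73) and RNY3 (1.23 ± 0.81) had medians of at most 14.1 normalized CPM. SCARNA2, a guide RNA of Cajal bodies, had 0.14 ± 0.71. None of these passed the test, and for all but RNU1-1 a change as large as that of 7SK lay within 2 SE.

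By list, 62 small nucleolar and Cajal body RNAs were tested out of 990 targets. None was called and 6 had an unadjusted p under 0.05, all higher, with a median log2 fold change of 0.42 against 0.09 over all tested. Over all tested, 0.196% were called, and 2.88% were higher and 1.02% lower at an unadjusted p under 0.05. Of 38 spliceosomal RNAs tested (of 1682 targets) none reached even an unadjusted p under 0.05, with a median of 0.18. Of the 7SL and 7SK targets 2 of 10 were tested and 1 was called, with a median of 0.46. Of the Y and vault RNAs 3 of 766 were tested, none called, with a median of -0.09, and of RNase P and RNase MRP 1 of 2, RPPH1. Replication-dependent histone mRNAs, which end in a stem-loop in place of a poly(A) tail, had a median of 0.50 over 63 tested of 95, with none called and 1 in each direction at an unadjusted p under 0.05. Their summed share of a well's counts was 0.987% ± 1.14 with #634413 and 1.35% ± 1.56 with #634444 (SD, n = 18; not tested). The spread between wells was thus larger than the difference between kits.

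Among ribosomal protein mRNAs, RPL27 rose. RPL27 is a protein of the large ribosomal subunit, and its called target ENST00000253788 is an mRNA of 490 bases and 5 exons (chr17:42998419-43002959, plus strand). It ranged from 17.2 to 412 normalized CPM with #634413, with a median of 223, and from 396 to 861 with #634444, with a median of 569. The kits overlapped by 1 well each. The log2 fold change was 1.28 ± 0.28 (SE; adjusted p = 0.0215), and the call was kept in 8 of 13 other settings (adjusted p up to 0.818). All RPL27 targets summed to the gene gave 1.05 ± 0.17 (adjusted p = 0.00038 in edgeR across 10597 genes, of which 4 or 0.0377% were called). RPL27-203, a retained intron target of the same gene, was at a median of 0 in both kits (0.51 ± 1.19, adjusted p = 1).

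Targets of RPS6 and EEF1A1, 2 further genes of the translation machinery, were called higher. RPS6-204, an mRNA of the small subunit protein RPS6, ranged from 153 to 1161 (median 398) with #634413 and from 621 to 1354 (median 971) with #634444. In all, 3 #634413 wells reached the #634444 range and 14 #634444 wells lay at or below the highest #634413 well, and the log2 fold change was 1.15 ± 0.23 (SE; adjusted p = 0.00576). The EEF1A1 target ENST00000309268, an mRNA of the elongation factor that brings aminoacyl-tRNA to the ribosome, went from a median of 2018 (770 to 3565) to 3685 (2122 to 4832), with an overlap of 9 and 8 wells and a log2 fold change of 0.80 ± 0.17 (adjusted p = 0.0157). Over 13 other settings (tool, scaling, filter, depth, blocks summed or left out) the call was kept in 9 for RPS6-204 and 6 for EEF1A1, with adjusted p up to 0.887. For both genes a shorter target stood opposite. The RPS6 target ENST00000315377 had a log2 fold change of -0.20 ± 0.19 (adjusted p = 1), and its share of the gene's counts was 64.7% ± 14.4 with #634413 and 40.9% ± 9.40 with #634444 (SD, n = 18), against 33.5% ± 14.9 and 56.6% ± 9.39 for RPS6-204. EEF1A1-203 held 37.5% ± 21.8 and 15.2% ± 13.1 of its gene, and ENST00000309268 held 52.04% ± 20.5 and 78.5% ± 11.9. In both pairs the higher target reaches further at its 3′ end: on the minus strand, RPS6-204 ends at chr9:19375715 and ENST00000315377 at chr9:19376285, and ENST00000309268 ends at chr6:73515750 and EEF1A1-203 at chr6:73517515. Neither gene passed the test of isoform use (adjusted Simes p = 1), and neither passed as a gene (log2 fold change 0.33 ± 0.11, adjusted p = 0.985, for RPS6 and 0.09 ± 0.11, adjusted p = 1, for EEF1A1). The pair of RPS6 targets summed to 1306 ± 276 normalized CPM with #634413 and 1752 ± 290 with #634444 (SD, n = 18), a ratio of 1.34, and the EEF1A1 pair to 3574 ± 1198 and 4213 ± 890, a ratio of 1.18.

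In the cytosolic ribosomal protein list, 233 of 766 targets were tested. With #634444, 3 were called higher (those of RPL27 and RPS6-204 above, and ENST00000225430 of RPL19) and 1 lower (RPL19-204), and 25 rose and 5 fell at an unadjusted p under 0.05. Over all transcripts tested, 0.189% were called higher and 0.00631% lower, and 2.88% rose and 1.02% fell at an unadjusted p under 0.05. The median log2 fold change of the list was 0.24, against 0.09 over all tested. The most abundant members gave 0.17 ± 0.33 (SE) for RPLP0-203, 0.30 ± 0.17 for RPL5-202 and 0.06 ± 0.28 for RPL4-203, a retained intron target whose sign flipped with library size alone. None of these 3 was called. Mitochondrial ribosomal proteins (122 of 495 tested, median 0.25) and nuclear subunits of oxidative phosphorylation (155 of 659, median 0.24) had no call. Translation factors had 1 call, that of EEF1A1, among 205 of 742 tested, with a median of 0.05 that fell to -0.07 with library size alone. The snoRNA host transcripts (31 of 272) had none, with a median of 0.09 that turned to -0.00 with library size alone.

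RPL19, a large subunit protein, held the only transcript called lower with #634444. RPL19-204 (ENST00000579374, 690 bases) had at least 5 counts in 9 of the 18 #634413 wells, with a median of 26.03 and a maximum of 1378 counts, and was at 0 in 7. It reached no more than 2.96 counts in any #634444 well and was at 0 in 15 of them. The wells with counts lay in all 3 #634413 blocks, 4, 3 and 2 of them per block, and wells without any stood beside them in each. The transcript fell by 9.48 on the log2 scale (SE 1.38, adjusted p = 4.2e-05), a size set by very few counts with #634444. The main RPL19 target ENST00000225430 (732 bases in the index) went the other way, from a median of 879 normalized CPM (243 to 1396) to 1421 (950 to 2112), with a log2 fold change of 0.76 ± 0.18 (SE; adjusted p = 0.0387). The kits overlapped in part, in 5 and 6 wells, and this call was kept in 4 of 13 other settings (adjusted p up to 0.887).

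RPL19-204 held 20.1% ± 27.9 of the RPL19 counts in #634413 wells, with a range of 0 to 85.3%, and 0.02% ± 0.0846 in #634444 wells. ENST00000225430 held 77.5% ± 28.2 and 99.2% ± 1.47 (SD, n = 18). Both targets together had 1130 ± 297 and 1429 ± 285 normalized CPM, and the gene as a whole did not pass the test (log2 fold change 0.21 ± 0.13, adjusted p = 1). RPL19 was the first of the 10 genes with a difference in isoform use (adjusted Simes p = 1.29e-11). RPL19-204 entered the test only through the #634413 wells, the kit where it is high. Its call and this p-value are thus no support for a difference. With counts summed over index blocks RPL19-204 was not called (adjusted p = 0.0772).

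**Figure D3:**
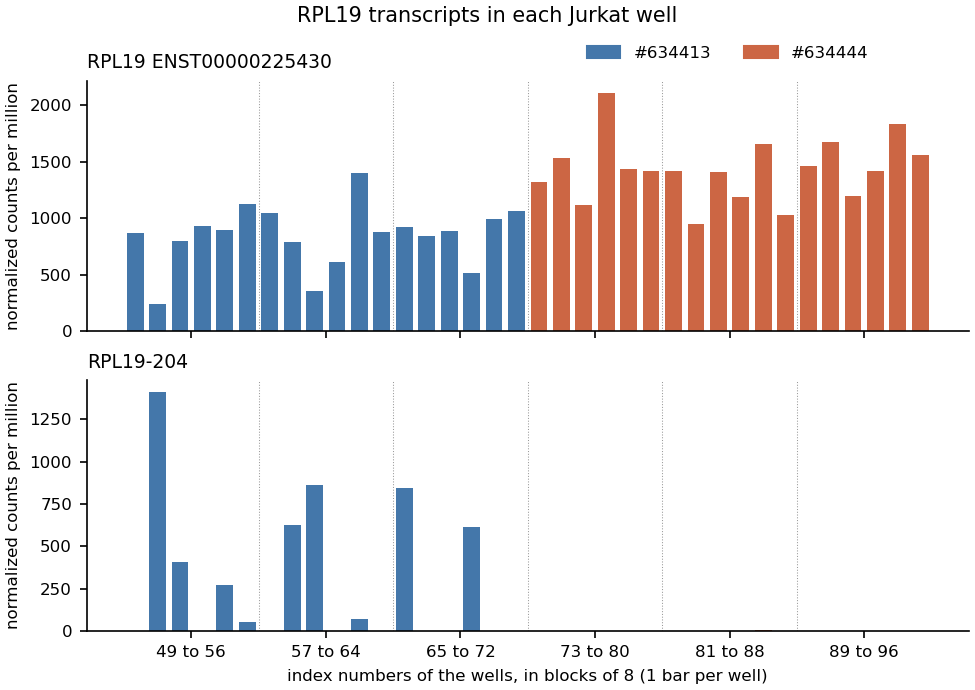
Normalized CPM (vertical axes) of the RPL19 targets ENST00000225430 and RPL19-204 in each Jurkat well, 1 bar per well, ordered by index number and split into blocks of 8 index numbers (horizontal axis). RPL19-204 appears in 9 wells at 5 counts or more, all of #634413 and in each of its 3 blocks, and is near 0 in every #634444 well.

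Differences in isoform use were found in 10 of 3830 genes with at least 2 tested transcripts (0.261%; edgeR's diffSpliceDGE, adjusted Simes p under 0.05). They were RPL19, ZC3H7A, RBBP7, PPME1, DANCR, ADD1, KCNAB2, USP33, RCAN3 and OCIAD1. Of these, 8 had a leading transcript with 0 counts in all 18 #634413 wells. The other 2 were RPL19, whose leading transcript entered the test through #634413 wells alone, and KCNAB2. A transcript at 0 with #634413 could enter the test only through the #634444 wells, the kit where it is high, so their number is no support for a difference. With the stricter filter of 10 counts in 50% of wells, 0 of 574 genes passed (diffSpliceDGE; 6 at an unadjusted p under 0.05). None of the 10 leading transcripts had enough counts to be tested there.

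RBBP7 encodes a histone-binding subunit of chromatin-modifying complexes. RBBP7-203 had 0 counts in all 18 #634413 wells, and a median of 14.3 and a maximum of 97.1 counts in #634444 wells, with 10 wells at 5 or more and 7 at 0. It took 33.2% ± 34.9 of the gene's counts with #634444 (SD, n = 18; adjusted Simes p = 0.00345). The most counted other targets, RBBP7-202 (6.76% ± 20.2 and 15.8% ± 25.97) and RBBP7-204 (23.4% ± 38.3 and 14.9% ± 20.6), varied from 0 to most of the gene between wells of both kits.

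PPME1, which demethylates the catalytic subunit of protein phosphatase 2A, had its target ENST00000328257 at 0 counts in all #634413 wells and at 34.7% ± 38.4 of the gene in #634444 wells (n = 15 and 18 wells with at least 5 counts of the gene; adjusted Simes p = 0.00555). PPME1-208 and PPME1-202 had 29.5% ± 36.5 and 21.7% ± 33.3 with #634413, and 24.5% ± 39.3 and 15.7% ± 30.8 with #634444. In ZC3H7A, a zinc finger protein, ENST00000355758 went from 0 in all #634413 wells to 31.7% ± 32.6 of the gene (n = 15 and 17 wells), while ZC3H7A-206, a target annotated as subject to nonsense-mediated decay, went from 31.9% ± 30.8 to 5.13% ± 13.96 without passing the test (log2 fold change -3.72 ± 1.26, adjusted p = 0.695).

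The long noncoding RNA DANCR had ENST00000411630 at 0 in all #634413 wells and at 53.2% ± 46.9 of the gene with #634444 (n = 13 and 15 wells), against 69.2% ± 48.04 and 27.03% ± 37.4 for DANCR-202. ADD1, a protein of the membrane skeleton, had ENST00000264758 at 0 and 15.6% ± 23.1 (n = 15 and 18 wells). Its other targets ADD1-206 (23.98% ± 36.9 and 14.5% ± 24.2) and ADD1-216 (13.01% ± 24.7 and 13.5% ± 19.4) overlapped widely between kits. KCNAB2, a beta subunit of voltage-gated potassium channels, had KCNAB2-202 at 0.19% ± 0.72 and 25.4% ± 25.4 (n = 18 wells each), and KCNAB2-203 at 44.1% ± 32.3 and 33.6% ± 32.8. The deubiquitinase USP33 had ENST00000357428 at 0 and 28.3% ± 36.4 (n = 14 and 18 wells), USP33-202 at 51.7% ± 47.3 and 25.6% ± 33.4, and USP33-209 at 25.5% ± 38.3 and 17.3% ± 30.3. The gene totals of all 8 genes with a leading transcript at 0 fell short of the threshold. RCAN3-205, of a regulator of calcineurin, and the OCIAD1 target ENST00000264312 completed the group at 0, with at least 5 counts in 10 and in 9 #634444 wells.

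Presence in wells was also counted. In all, 8 tested transcripts (0.0505%) had 0 counts in every #634413 well and at least 5 in 9 or more #634444 wells, and 0 (0.0%) had the reverse. With under 5 counts in place of 0, the numbers were 19 (0.12%) and 2 (0.0126%). The 9 wells are those the filter asks for, so every tested transcript under these limits in 1 kit meets the pattern, and the counts are a description. The test of wells with at least 5 counts, chosen after seeing the data, does not rest on the fitted size: Fisher's exact test with adjustment over all 15847 transcripts called 5 (0.0316%). They were ENST00000445332 (0 and 17 wells), MAFF-208 (0 and 17), ENST00000418655 (1 and 17), ENST00000396408 of ZNF765 (0 and 14) and GNG5-202 (5 and 18). The 8 transcripts at 0 in every #634413 well, with 9 or 10 wells of #634444, were not among them (adjusted p = 0.176 or 0.2 in Fisher's exact test). Of the 5, ENST00000445332, MAFF-208 and the ZNF765 target passed the filter through #634444 wells alone. Fisher's exact test reads the same counts as edgeR, so it is no separate support.

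The other scarce calls also had few or no counts with #634413. Those without a #634413 well of at least 5 counts passed the filter through #634444 wells alone, so their calls are no support for a difference. ADCYAP1-203, of the neuropeptide PACAP, had a maximum of 2.18 counts with #634413 and a median of 10.8 with #634444. ENST00000255759 of CEP20, a centrosomal protein, had 15.7 in the median with #634444 and 1 #634413 well with at least 5. ENST00000302503 of MTCH2, a protein of the mitochondrial outer membrane, had 13 wells with at least 5 counts against 2. ZBED5-210, ERAP1-209 (of an aminopeptidase that trims peptides for MHC class I), LAPTM4B-204 and the MYO18A target ENST00000359450 had no #634413 well with at least 5 counts, and 10 or 9 such #634444 wells. DNTTIP1-205, CAPRIN1-209, MICAL1-202 and the TRAPPC10 target ENST00000291574 had 1 such #634413 well each and 8 or 9 #634444 wells. ENST00000627982, which has no entry in GENCODE v44 and no printed sequence here, had at least 5 counts in 11 #634444 wells and none of #634413.

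The kits did not overlap for ENST00000445332 and MAFF-208. ENST00000445332 (424 bases, 2 exons, gene ENSG00000236255, a long noncoding RNA) had 0 counts in 15 #634413 wells and at most 1.35 in the others, and between 1.86 and 80.98 counts in #634444 wells, with a median of 29.99. No well of one kit lay in the range of the other (adjusted p = 2.08e-05 in edgeR and 3.32e-05 in Fisher's exact test). MAFF-208 (3284 bases, 1 exon, a retained intron target of the small MAF transcription factor gene MAFF) had at most 3.11 counts with #634413 and between 3.23 and 33.3 with #634444, with a median of 17.7 (adjusted p = 0.00207 and 3.32e-05), so that its groups nearly met. As normalized counts, these groups did not overlap either.

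Both hold the run of 31 A bases printed above, and the sorting of targets by such runs was made after seeing this. The limit of 31 bases is their own run length, so their 2 calls lie in the group by choice and are no support. An A run of at least 31 bases occurs in 119 targets, poly(A) ends set aside. Of these 35 were tested and 2 were called, with 7 at an unadjusted p under 0.05, all higher. Over all transcripts tested, 0.196% were called and 3.91% had an unadjusted p under 0.05. The median log2 fold change of the 35 was 0.43, against 0.07 for targets with A runs of up to 9. Between these, the median was 0.22 for runs of 10 to 19 (1945 tested, 2 called) and 0.30 for runs of 20 to 30 (304 tested, 0 called). For T runs of at least 31 bases (92 targets, 36 tested) none was called and 1 had an unadjusted p under 0.05, with a median of 0.62. Targets with T runs of up to 9, 10 to 19 and 20 to 30 had medians of 0.06, 0.22 and 0.27. The medians thus rose with run length for both bases. Targets with such A runs took 0.0972% ± 0.0256 of the counts with #634413 and 0.145% ± 0.0275 with #634444 (SD, n = 18), and those with T runs 0.16% ± 0.0287 and 0.191% ± 0.037.

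The targets named next were picked after their values were seen, and all were higher with #634444. By mean share of the counts, 81 of the 119 targets with such A runs were higher with #634444 and 24 were lower. Of the 92 targets with T runs of at least 31 bases, 58 were higher and 19 were lower, so the direction was not particular to A runs. FGF23 (ENST00000237837), an mRNA of a phosphate-regulating hormone with an A run of 32 bases, had at least 5 counts in 6 and in 18 wells, with medians of 2.01 and 20.8 counts (log2 fold change 2.23 ± 0.84, SE; adjusted p = 0.876). ENST00000330062 of IDH2, an mRNA of mitochondrial isocitrate dehydrogenase with a run of 31, had medians of 15.6 and 136 counts, and its share of the gene went from 18.2% ± 27.7 to 53.9% ± 25.2 (log2 fold change 1.97 ± 0.69, adjusted p = 0.745). LINC03031-202 (run of 38) had at least 5 counts in 1 and in 11 wells, and ENST00000568952 (run of 33) in 0 and 9. NPM1P40, STAG2-218 and RPS6KA6-204, with runs of 31 to 41, did not pass the filter and had at least 5 counts in 4, 8 and 5 wells of #634444, and in 1 well of #634413 in all. ENST00000418655, a processed pseudogene with a run of 20, had at least 5 counts in 1 and 17 wells (log2 fold change 3.76 ± 0.98, adjusted p = 0.132 in edgeR, 0.000378 in Fisher's exact test).

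**Figure D4:**
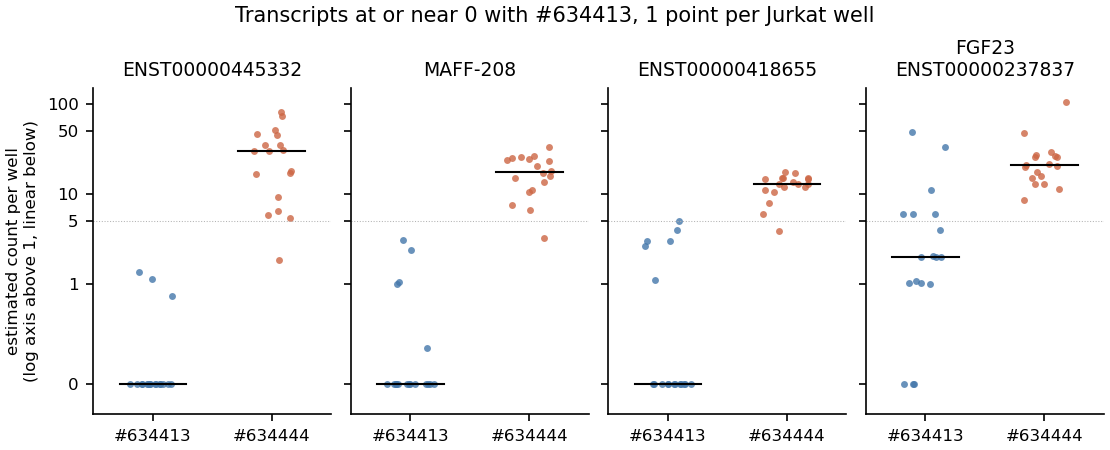
Estimated counts per well (vertical axis, logarithmic above 1 and linear below) of 4 transcripts in 18 Jurkat wells per kit, 1 point per well, with a line at the median and a dotted line at 5 counts. For ENST00000445332, MAFF-208 and ENST00000418655 nearly all #634413 wells lie under 5 and 17 of 18 #634444 wells above it, while FGF23 overlaps.

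The same kit contrast in A375, which shares no well with Jurkat, called 5 of 15686 transcripts (0.0319%): MAFF-208, ENST00000418655, GPR85-202 and NCALD-224 were higher with #634444 and UPF1-210 lower. Of 17 Jurkat calls tested there, 1 was called, MAFF-208 (log2 fold change 5.67, adjusted p = 1.25e-05). It had at least 5 counts in 2 of 21 #634413 wells and in 21 of 21 #634444 wells. Among A375 wells with at least 25% of the median total its log2 fold change was 3.88 and the call was lost (adjusted p = 0.0986), as was that of ENST00000418655 (3.22, adjusted p = 0.54). ENST00000418655 had 1 and 21 such wells (log2 fold change 4.85, adjusted p = 0.000885), and FGF23 had 8 and 20. ENST00000445332 had 3 and 20, with a log2 fold change of 2.35 that did not pass (adjusted p = 0.937). Counts of these targets were also present in A375 wells that held almost no others. In 4 #634444 wells with totals of 1230, 1395, 1613 and 2373 counts, MAFF-208 had 29.8, 19.97, 32.5 and 6.46 counts and ENST00000418655 had 16.5, 17, 17 and 5. In the same wells ENST00000445332 had 0, 5.05, 19.1 and 6.02 counts and FGF23 13.2, 12.1, 2.24 and 6.09. In the 2 #634413 wells of like depth, with totals of 1331 and 909, FGF23 had 1 and 3 counts and the other 3 targets were at 0. What part such counts have in the Jurkat difference was not tested.

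The abundant Jurkat calls had values in A375 short of the threshold: 0.57 for 7SK, 0.71 for RPL27, 0.49 for RPS6-204, 0.48 for EEF1A1 and 0.28 for the main RPL19 target on the log2 scale, while ENST00000554988 had -0.09. Among A375 wells with at least 25% of the median total these became 0.90 for 7SK (SE 0.25, adjusted p = 0.548), 0.79, 0.55, 0.54 and 0.35 for the others in that order, and 0.52 for ENST00000554988, none past the threshold. Of the isoforms at or near 0 in the #634413 wells of Jurkat, several had counts in A375 with both kits. The OCIAD1 target had means of 34.9 and 29.7 counts there, RBBP7-203 had 15.1 and 12.8, that of USP33 had 15.97 and 15.8, and LAPTM4B-204 had 31.1 and 28.2.

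By class, noncoding isoform classes took smaller shares of the counts with #634444 in Jurkat. Retained intron targets fell from 6.80% ± 0.609 of a well's counts with #634413 to 5.63% ± 0.65 with #634444 (SD, n = 18; two-sided permutation test, adjusted p = 0.000107). Targets annotated for nonsense-mediated decay fell from 5.33% ± 0.271 to 4.63% ± 0.24 (adjusted p = 0.000107), and targets with no defined coding sequence from 4.43% ± 0.327 to 3.62% ± 0.342 (adjusted p = 0.000107). The ranges of nonsense-mediated decay, 4.80% to 5.82% and 4.16% to 5.05%, overlapped at their ends. Coding mRNA rose from 56.1% ± 2.57 to 58.6% ± 2.89 (adjusted p = 0.0255), a direction that was not kept in TPM. The permutations behind the first 3 gave p = 2e-05, the smallest they can give. In A375 wells of sufficient depth (17 of #634413 and 16 of #634444), retained introns went the other way, 5.73% ± 1.70 and 5.98% ± 0.937. Nonsense-mediated decay had 4.13% ± 1.36 and 4.05% ± 0.282 there, and no defined coding sequence 3.50% ± 1.01 and 3.40% ± 0.344 (SD, not tested). The falls in these 3 classes were thus not seen beyond the spread in A375.

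The transcript-level medians of Jurkat pointed the same way as the Jurkat shares, as they come from the same counts. Over all transcripts tested the median log2 fold change was 0.09, with 0.189% called higher and 0.00631% lower. Coding mRNAs had a median log2 fold change of 0.16 over 10919 tested, with 22 called higher and 1 lower. Retained introns had -0.16 over 1508 with 2 called higher, nonsense-mediated decay -0.09 over 1223 with none called, and no defined coding sequence -0.19 over 1089 with 1 called higher. Long noncoding RNAs had 0.22 over 347 tested with 3 called, and their share did not differ beyond its spread (2.18% ± 0.747 and 2.48% ± 0.665, adjusted p = 0.32).

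Small RNA classes rose in part. The ribozyme class, 8 targets of which only RPPH1 was tested, rose from 0.0874% ± 0.031 to 0.132% ± 0.0337 (adjusted p = 0.000704), snoRNA and scaRNA from 0.271% ± 0.0559 to 0.342% ± 0.0412 (adjusted p = 0.000704) and misc_RNA, the class of 7SL, 7SK and Y RNAs, from 1.91% ± 0.338 to 2.33% ± 0.442 (adjusted p = 0.00821). The snRNA share was 0.473% ± 0.086 and 0.443% ± 0.0788 (adjusted p = 0.37). Processed pseudogenes fell from 0.366% ± 0.0522 to 0.313% ± 0.0688 (adjusted p = 0.0278). The rDNA repeat unit, at 13.3% ± 2.25 and 12.6% ± 2.81, annotated rRNA and nuclear copies of mitochondrial genes did not pass (adjusted p = 0.467, 0.852 and 0.871). Of the 8 classes that passed over wells, all but coding mRNA and misc_RNA reached the smallest exact p over blocks, 0.1, and those gave 0.3 and 0.2. In the 17 and 16 A375 wells of sufficient depth, processed pseudogenes went the other way, 0.382% ± 0.0891 and 0.438% ± 0.0641. There misc_RNA had 1.68% ± 0.526 and 2.46% ± 0.846, and ribozyme 0.018% ± 0.0118 and 0.0242% ± 0.0143. The snoRNA and scaRNA class had 0.301% ± 0.203 and 0.332% ± 0.142 (SD, not tested).

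**Figure D5:**
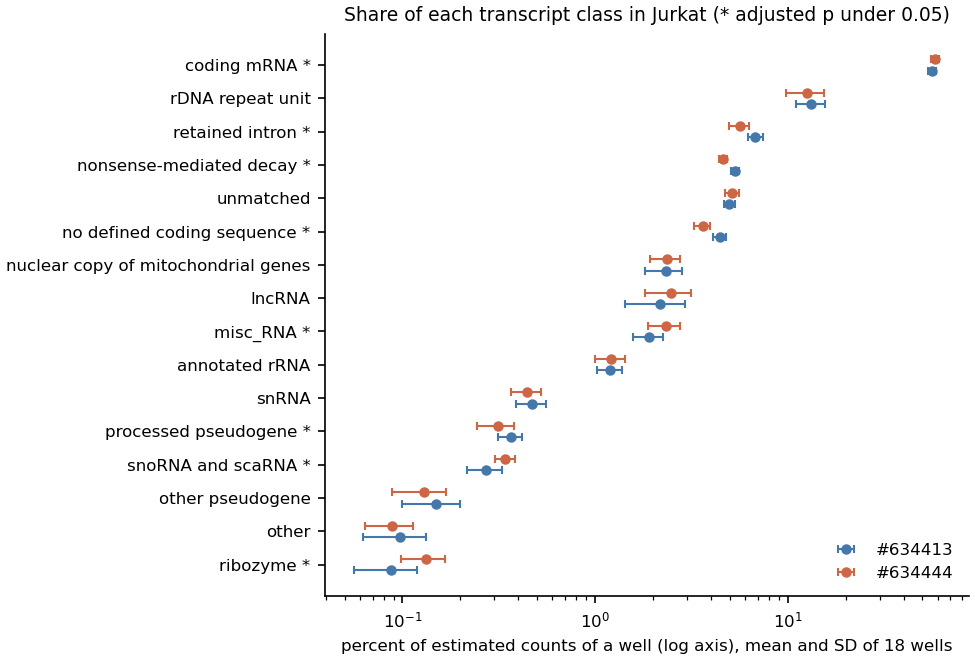
Share of a well's estimated counts in each transcript class (horizontal log axis, percent), as mean and SD of 18 Jurkat wells per kit, with a star where the adjusted p is under 0.05. The SD bars of the kits part for nonsense-mediated decay and for targets with no defined coding sequence, and overlap or nearly meet for the other classes.

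Processed pseudogenes of ribosomal protein genes took 0.144% ± 0.041 of the counts with #634413 and 0.094% ± 0.0164 with #634444, and the other processed pseudogenes 0.221% ± 0.0435 and 0.219% ± 0.0645 (SD, n = 18; lists, not tested). Of the former 8 of 1580 targets were tested, with none called and 2 lower at an unadjusted p under 0.05 (1.02% over all tested). Their median log2 fold change was -0.41, against 0.09 over all tested. Of the latter 30 of 8799 were tested, with none called and a median of 0.03, or -0.04 with library size alone. RPL36AP37 was the one with the largest fall among the 5 most abundant, from a median of 373 normalized CPM (40.2 to 685) to 141 (0 to 271), with wide overlap (log2 fold change -1.51 ± 0.45, SE; adjusted p = 0.338). RPL22P1 went from 453 (29.3 to 826) to 293 (57.7 to 516; -0.65 ± 0.30, adjusted p = 1). HMGB1P5 (-0.23 ± 0.60), HMGB1P6 (-0.15 ± 0.70) and ENST00000466501 (0.22 ± 0.33) were not called. Nuclear copies of mitochondrial genes had none called among 26 tested of 404, with a median of 0.03 that turned to -0.07 with library size alone. The index held no transcripts of the mitochondrial chromosome.

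Target length separated the kits in 1 of 7 bins. Targets of over 500 and up to 1000 bases held 19.3% ± 0.807 of the counts with #634413 and 17.5% ± 1.06 with #634444 (SD, n = 18; permutation test, adjusted p = 0.00014; exact p over blocks 0.1). Targets of over 2000 and up to 4000 bases had 20.2% ± 1.17 and 21.2% ± 1.31 (adjusted p = 0.0624), and targets of up to 200 bases 1.86% ± 0.26 and 1.86% ± 0.284 (adjusted p = 0.97). Median log2 fold changes rose with length from -0.10 at over 500 and up to 1000 bases (3561 tested) to 0.21 over 4000 bases (3832 tested). Targets of up to 200 bases had 0.18 over 122 tested. The mean fragment length was 211 ± 4.26 bases with #634413 and 209 ± 6.42 with #634444 (adjusted p = 0.123), and the mean GC content of targets 49.6% ± 0.282 and 49.3% ± 0.365 (adjusted p = 0.0302; exact p over blocks 0.2).

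More targets were seen per well with #634444 although its totals were lower. At least 5 counts were held by 10802 ± 1740 targets with #634413 and 14097 ± 2272 with #634444 (SD, n = 18; permutation test, adjusted p = 0.00018). With every well thinned to 413937 counts the values were 9126 ± 1014 and 11774 ± 806 (adjusted p = 0.00012; 3 block means of 8635 to 9622 against 11742 to 11826). Genes seen at this depth were 6365 ± 572 and 7872 ± 464. Isoforms per gene also spread: over 1366 to 1777 genes per well with at least 50 counts and 2 or more targets, 2.18 ± 0.138 and 2.52 ± 0.0922 targets had at least 5 counts, and the leading target held 77.5% ± 3.70 and 72.2% ± 1.33 of its gene in the median. These last 3 measures were added after seeing the data and their difference is given as a description.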

How the data were processed

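Paired-end reads of the single cell total RNA libraries were trimmed by the authors with cutadapt, removing bases from read 2, and quantified with Kallisto 0.43.1 in its stranded mode against Ensembl v91 transcripts with ERCC spike sequences, and mapped for quality control with STAR 2.5.3 on hg38. The authors deposited estimated counts per target, not normalized, which were rounded and tested, and TPM values, used for 1 alternative. No resampled estimates were used here, so the error of assigning reads to isoforms is unknown. Members, lists and tests were chosen with earlier results of these data known.

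Names and classes were looked up by identifier in GENCODE v44: 195850 targets matched, 4356 did not, and 264 spike sequences, with 17 counts in all wells, were left out. Matched targets had the GENCODE length in 85.2%. The rDNA repeat unit stayed in totals and tests. edgeR 4.0.16 (R 4.3.3, limma 3.58.1) was fitted with glmQLFit and glmQLFTest on all 36 Jurkat wells with TMM scaling, for targets that reached 5 counts in 25% of wells or more, with Benjamini-Hochberg adjustment and a threshold of 0.05. diffSpliceDGE gave isoform use. Standard errors of log2 values were derived from the F statistics. CPM values used TMM-scaled totals. A375 wells were fitted apart, and the interaction on 78 wells. Shares, lengths and well measures were compared with two-sided permutation tests (100000 resamples), adjusted within each family, and blocks with exact permutation tests. The procedures were tested on simulated data with changes only in transcripts of a mean over 50 counts. The simulation thus did not cover scarce transcripts, the kind of most calls. Depth per well is in the text.

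Named transcripts are the 12 of smallest adjusted p in each direction, the most counted transcript of each of a set of short RNAs, every tested transcript of RPL27, the 5 most counted ribosomal protein transcripts and processed pseudogenes, and the isoforms of the 8 genes of smallest Simes p. The other called transcripts, the targets with A runs, and the sister targets and sums of 7SK, RPPH1, RPL19, RPS6 and EEF1A1 were added after their values were seen. Alternatives were DESeq2 1.42.0, library size alone, other filters, blocks, gene sums, thinned wells, TPM and no rDNA unit. Leaving out blocks and Fisher's exact test were added after seeing the data. Python 3.11.15 with numpy 2.4.6, pandas 2.3.3, scipy 1.17.1 and matplotlib 3.10.9 computed tables and plots. Some marker and transcript values are not reported here.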

Additional observations from a re-analysis of the deposited data

Results flagged for a closer look

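The kit effect differed between the cell lines for 164 of 14288 transcripts (1.15%; edgeR's interaction term, adjusted p under 0.05), with 29 larger and 135 smaller in A375. In 158 of the 164, the mean of at least 1 of the 4 groups was under 1 count, which held for 8.55% of the transcripts tested, and with at least 10 counts in 50% of wells 0 of 3243 passed (edgeR; 35 at an unadjusted p under 0.05).

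Among the Jurkat calls, 9 of the 18 tested for this had such a difference, all smaller in A375. These transcripts were chosen for a large kit effect in Jurkat, so their common direction is fixed in part by that choice. The fitted differences (log2 kit effect in A375 minus that in Jurkat) depend on the prior count, as the #634413 wells of Jurkat are at or near 0. They were -7.81 for RBBP7-203, -7.31 for OCIAD1 (ENST00000264312), -7.18 for PPME1 (ENST00000328257), -6.46 for ZC3H7A (ENST00000355758), -6.46 for USP33 (ENST00000357428), -6.05 for ENST00000627982, -5.11 for LAPTM4B-204, -5.03 for MTCH2 (ENST00000302503) and -4.25 for ENST00000445332. The adjusted p was between 0.00467 and 0.0411, and the MTCH2 target lost its call among wells with at least 25% of the median total (adjusted p = 0.0582). The mean counts of the PPME1 target were 0 and 25.5 in Jurkat and 8.06 and 11.5 in A375, for #634413 and #634444, and those of the ZC3H7A target were 0 and 34.9 in Jurkat and 19.7 and 47.8 in A375.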

How the results depend on the processing

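The 31 calls became 8570 of 58752 transcripts at 1 count in 3 wells, 4 of 4275 at 10 counts in 50% of wells, 4 genes after summing, 52 with DESeq2, 5 with Fisher's exact test and 0 of 15847 with index blocks summed (edgeR; 651 at an unadjusted p under 0.05). Without blocks 49 to 56, 57 to 64, 65 to 72, 73 to 80, 81 to 88 and 89 to 96 they became 78, 127, 122, 8, 11 and 13. Of the 31 calls, 28 remained with DESeq2, 25 with library size alone, 31 without the rDNA unit and 23 of the 23 tested after thinning, and no call turned its direction. Isoform use became 0 genes under the stricter filter (diffSpliceDGE; 6 at an unadjusted p under 0.05) and 4 with blocks, and the interaction 0 (edgeR; 35 at an unadjusted p under 0.05). Over blocks, 0 classes, 0 lengths and 0 well measures passed. There 3 blocks against 3 cannot go below 0.1, and coding mRNA and total counts (0.3) and misc_RNA and GC content (0.2) lay above that. Without the rDNA unit 2 lengths passed. The cause of the other changes was not tested.

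Signs turned, all short of the threshold, in TPM for coding mRNA (-0.0299 percentage points) and other pseudogenes (0.0215), and without the rDNA unit for targets of over 1000 and up to 2000 bases (-0.132). On the log2 scale, RPL4-203 turned to -0.017 with library size alone, -0.023 at 10 counts in 50% of wells, -0.11 with blocks and -0.076 without block 73 to 80, and RBBP7-204 to -0.11 with blocks. Without block 49 to 56, RBBP7-204 had -0.43 and EEF1A1-208 0.12. Without 57 to 64, DANCR-202 had 0.68, ADD1-206 0.25 and EEF1A1-208 0.023. Without 65 to 72, RNY1 had 0.51 and RBBP7-204 -0.37. Without 73 to 80, RNU12 had -0.065, ADD1-206 0.18, KCNAB2-203 0.0022 and EEF1A1-202 -0.24. Without 81 to 88, RNY1 had 0.058, RPL27-203 -0.49, ADD1-206 0.16 and EEF1A1-208 0.47. Without 89 to 96, RNY1 had 0.031, HMGB1P6 0.078 and RBBP7-204 -1.16. No paired analysis was possible because the kits share no index number and replicate numbers only name wells.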
